A study of Mus musculus with 29 samples.

Results

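The colon transcriptome of mice with colitis induced by 2,4-dinitrobenzenesulfonic acid (DNBS) was compared with that of untreated wild-type mice. The members were the 3 mice labelled as given DNBS (mice 11, 14 and 16) and the 3 untreated controls (mice 1, 2 and 4), 6 of the 29 mice of the series, and all genes of the count table were considered. All 6 carried the label Balb/C with no targeted allele. Each DNBS mouse had received 3 mg of DNBS in 200 µl of 50% ethanol by the rectal route under isoflurane, and the methods place the cull 3 days later, or sooner where welfare required it. The controls had no enema, so DNBS, its ethanol vehicle and the procedure cannot be told apart. Sex and age were not given. The other mice labelled Balb/C and used for comparison were 3 given 3% dextran sulfate sodium (DSS) in drinking water for 5 days and culled at day 10 per the labels (the methods name C57Bl6 mice and an earlier cull for this model), and 4 labelled as given an IL10 blocking antibody, which the protocol names as anti-IL-10R, with a cull after 4 weeks or at earlier signs of colitis (the methods describe no such antibody and name Il10-/- mice given microbiota by gavage). RNA came from whole colon segments, in which fewer cells of a type and less RNA per cell cannot be told apart.

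DNBS is a hapten, a small reactive molecule that binds to proteins of the colon wall once ethanol has broken the mucus and epithelial barrier. The modified proteins are then seen as foreign, and the mice develop an acute, patchy and ulcerating colitis. In such lesions the epithelium and stroma release chemokines that bring neutrophils and monocytes from the blood, the surviving epithelium switches to defence and repair, and fibroblasts lay down matrix.

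Between 11519242 and 14977094 reads were assigned to genes in each of the 6 libraries, and no pair of libraries agreed within sampling noise. Levels are given in CPM, counts scaled to a common library size, and 3 counts, taken as the floor, equalled 0.179 to 0.256 CPM. The summed level of 8 posterior Hox genes, which mark the distal gut, was 870 to 1083 CPM in the controls and 709 to 866 CPM in the DNBS mice, 318 to 609 CPM in the DSS mice, 500 to 948 CPM in IL10 antibody mice 1 to 3 and 20.1 CPM in IL10 antibody mouse 4, the lowest of these libraries by far. H2-Ea-ps, a class II gene that is silent in C57BL/6 mice and expressed in BALB/c mice, had at most 1 count in any of the 6 libraries although all were labelled Balb/C. It was likewise at or near 0 in the DSS, IL10 antibody and T cell transfer mice, at most 0.104 CPM, whereas it lay between 67.7 and 318 CPM in the Rag1-/- control, anti-CD40, Rag2-/- control and TRUC (Tbx21-/- Rag2-/-) mice, of which the Rag1-/- control and anti-CD40 mice were labelled C57BL/6. H2-Ea-ps thus goes against the strain labels of several groups, and the strain is given below only as labelled. DNBS mice and controls were alike in it. Nnt, the other gene examined for mouse background, was at most 0.589 CPM in every group and did not show this split. In DNBS mouse 14, IL10 antibody mouse 4, Rag1-/- control mouse 4 and Rag2-/- control mouse 1, 19 transcripts, among them both mitochondrial ribosomal RNAs, Rpl12 and Hsp90aa1, were more than 2-fold below the lowest level of the other 25 libraries. Hsp90aa1, a heat shock chaperone, was at 309 to 343 CPM in the controls and at 305, 4.42 and 582 CPM in DNBS mice 11, 14 and 16. None of the 19 was called between the groups by edgeR, 0 had an unadjusted p under 0.05, and 0 were called by DESeq2 or limma. The loss in mouse 14 widens their spread, so the lack of calls cannot show that the groups were alike in them. Of the 19, only the mitochondrial ribosomal RNAs mt-Rnr1 and mt-Rnr2 lay below every control in every DNBS mouse. For mt-Rnr1 the controls had 502, 495 and 436 CPM and DNBS mice 11, 14 and 16 had 328, 2.02 and 264 CPM. The cause of the loss was not tested.

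Of 18616 genes put through the quasi-likelihood test of edgeR, 736 were higher in DNBS colon (3.95% of the genes tested) and 412 were lower (2.21%), with the adjusted p held under 0.05. The median log2 fold change of all genes tested was 0.01. Upper quartile scaling shifted that median to -0.06 and split the calls into 542 higher and 520 lower. In 686 of the 736 higher genes and 406 of the 412 lower genes, the 3 DNBS mice did not overlap the 3 controls. Such separation without overlap occurred in 15.6% of all genes tested on the higher side and in 16.9% on the lower side. With control and DNBS mice fitted alone, 409 genes were higher (2.2%) and 215 lower (1.15%), and 284 and 122 of them respectively were called in both fits. DESeq2 called 5.94% of the genes higher and 4.15% lower, and limma with sample weights 8.69% and 6.52%. The counts depended strongly on single mice. Leaving out DNBS mouse 11, 14 or 16 gave 1370, 275 and 385 higher genes (7.36%, 1.48% and 2.07%) and 976, 44 and 52 lower genes (5.24%, 0.236% and 0.279%). Leaving out control mouse 1, 2 or 4 gave 151, 174 and 379 higher genes (0.811%, 0.935% and 2.04%) and 44, 78 and 194 lower genes (0.236%, 0.419% and 1.04%), and the counts of gene lists without 1 mouse, given below, are to be read against these shares. Calls that held in the full fit and in each of these 6 fits numbered 113 higher and 25 lower genes. An unadjusted p under 0.05 by edgeR was found for 2601 genes on the higher side (14%) and 1943 on the lower (10.4%). Counts of list members at an unadjusted p are to be read against these 2 shares.

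**Figure D1:**
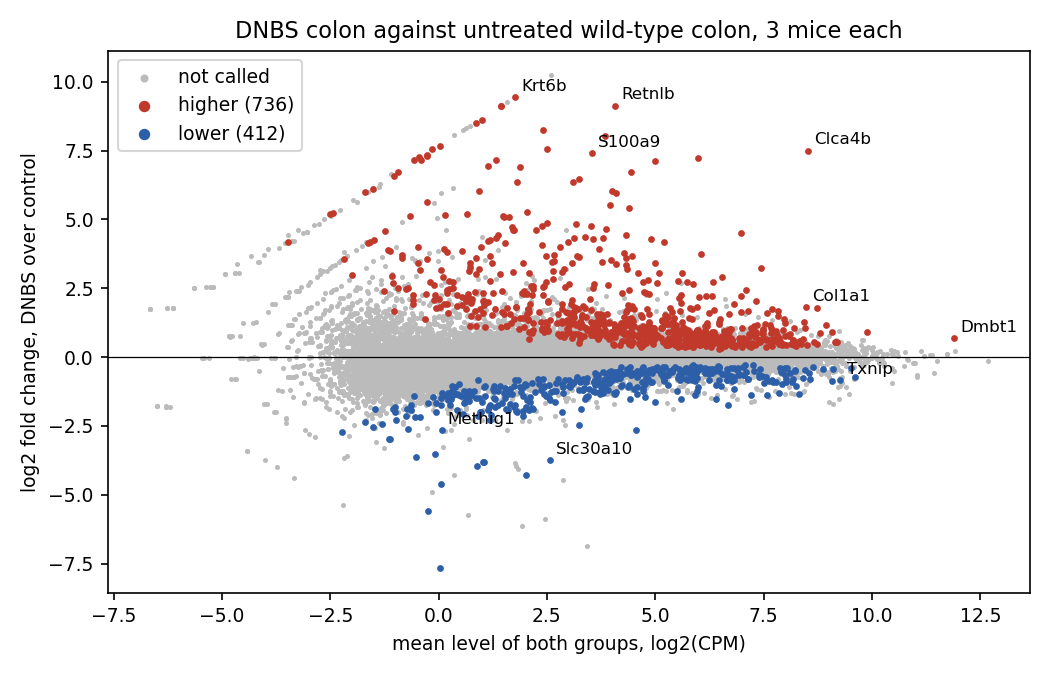
Log2 fold change of DNBS over control (vertical axis) against the mean level of both groups in log2(CPM) (horizontal axis), 1 point per gene tested. Red points are the 736 genes called higher and blue points the 412 called lower by edgeR with the adjusted p under 0.05, and the largest rises lie among genes near 0 in the controls, whose fitted fold changes depend on the prior count.

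Cxcl1, Cxcl2, Cxcl3 and Cxcl5, chemokines that draw neutrophils through the receptor Cxcr2, were examined because DNBS lesions fill with neutrophils. Cxcl1, Cxcl2 and Cxcl3 lie close together on chromosome 5, and the bases upstream of their starts are shown because all 3 genes rose and share the same letters there. The sequences are from RefSeq on GRCm38.p6, written 5′ to 3′ on the + strand, and the capitals mark GGGAATTTCCC, the longest run of bases that all 3 share, which has the form of an NF-kappaB recognition sequence. They cover chr5:90890995-90891244 for Cxcl1, chr5:90903649-90903870 for Cxcl2 and chr5:90785851-90786100 for Cxcl3.
Cxcl1: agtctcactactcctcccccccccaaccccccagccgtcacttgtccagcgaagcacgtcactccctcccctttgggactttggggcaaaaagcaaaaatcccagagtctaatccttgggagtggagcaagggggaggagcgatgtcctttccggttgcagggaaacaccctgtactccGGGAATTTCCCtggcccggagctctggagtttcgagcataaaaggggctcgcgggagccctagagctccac
Cxcl2: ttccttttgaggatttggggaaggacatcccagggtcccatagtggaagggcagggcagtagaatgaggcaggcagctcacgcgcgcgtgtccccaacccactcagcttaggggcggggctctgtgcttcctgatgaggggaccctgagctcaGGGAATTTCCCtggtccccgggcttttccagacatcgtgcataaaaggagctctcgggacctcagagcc
Cxcl3: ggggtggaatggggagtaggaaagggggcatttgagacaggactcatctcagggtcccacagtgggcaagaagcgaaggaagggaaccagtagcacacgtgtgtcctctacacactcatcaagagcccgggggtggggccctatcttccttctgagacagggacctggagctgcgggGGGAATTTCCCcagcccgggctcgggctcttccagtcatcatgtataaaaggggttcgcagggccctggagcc
These 11 bases were then searched on both strands of the 250 bases upstream of 27025 genes. They were present once, on the + strand and with no overlap with a second copy, at 71, 97 and 73 bases before the RefSeq starts of Cxcl1, Cxcl2 and Cxcl3. The Cxcl2 sequence printed is 222 bases long, since it stops where a GENCODE transcript begins upstream of the RefSeq start. They were present in 14 of the 27025 genes (0.0518%), 8 of which could be tested. Of the 8, 3 were higher in DNBS colon and 0 lower, and the 3 were the chemokines from which the letters were taken. A match describes the letters only. Cxcl5 had no entry.

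All 4 genes of the neutrophil chemokine list rose, with a median log2 fold change of 5.50, or 3.73 with genes at or near 0 in the controls set to their bound. The platelet chemokine Ppbp, which was not on this list, was called as well but lay below every control in mouse 16. Cxcl5, the most abundant of them in CPM, measured 2.74, 3.2 and 3.2 CPM in the controls and 27.4, 30.6 and 53.7 CPM in DNBS mice 11, 14 and 16. Every DNBS mouse lay far above every control, and the mean rose 12.2-fold (log2 fold change 3.60 ± 0.67 SE, adjusted p = 0.00373). Cxcl2 had 0.0762, 0 and 0 CPM in the controls and 1.19, 8.84 and 5.03 CPM in the DNBS mice. The counts pooled over each group and scaled by library size, the measure behind each ratio given with a counting interval, gave a ratio of 188 with an exact counting interval of 33.4 to 7466 (adjusted p = 0.0256). Cxcl1 went from 0.305, 0.0666 and 0.164 CPM to 0.717, 1.47 and 6.06 CPM (adjusted p = 0.0273). Cxcl3 had no count in any control and 1.37, 2.25 and 2.47 CPM in the DNBS mice, at least 9.03-fold higher (adjusted p = 0.0386). The groups did not overlap for any of the 4 genes, and the levels of Cxcl1, Cxcl2 and Cxcl3 stayed low even in the inflamed colons. Cxcl5 was called whichever mouse was left out, whereas the number of the 4 called was 4, 2 and 1 without DNBS mouse 11, 14 and 16 and 1 without any of the 3 controls. Counting intervals and floors here and below cover counting error only. Cxcl2 shares 5.84% of its sequence windows with Cxcl3.

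Of 18 neutrophil genes tested, 10 were higher and 0 lower, with a median log2 fold change of 3.84 (3.27 at the bound). S100a9, which with S100a8 forms calprotectin, the main protein of neutrophil cytosol, measured 0.229, 0.133 and 0 CPM in the controls and 5.91, 40.9 and 22.2 CPM in DNBS mice 11, 14 and 16. Mouse 11 was the lowest of the DNBS mice but still well above every control, and the ratio of pooled counts was 173 (counting interval 73.7 to 533, adjusted p = 0.00232). S100a8 rose 93-fold (adjusted p = 0.00265). Cxcr2, the receptor for the chemokines above, had no count in the controls and 2.51, 4.96 and 3.41 CPM in the DNBS mice, at least 16.1-fold higher (adjusted p = 0.0112). Csf3r, the receptor for the growth factor G-CSF, stood at 0.762, 0.866 and 0.738 CPM against 7.11, 11.5 and 12.3 CPM, a 13-fold rise (adjusted p = 0.00791). These receptors differed less among the DNBS mice than S100a9 did. Ltf, which encodes the iron-binding lactoferrin of neutrophil granules and of some epithelia, had a different order, with 27.4 CPM in mouse 11, 5.12 in mouse 14 and 19.4 in mouse 16 against at most 0.762 CPM in the controls (adjusted p = 0.0238). S100a8 and S100a9 were called in each of the 6 fits without 1 mouse. For the list, 13, 6 and 7 genes were higher without DNBS mouse 11, 14 and 16, and 2, 5 and 5 without control mouse 1, 2 and 4.

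**Figure D2:**
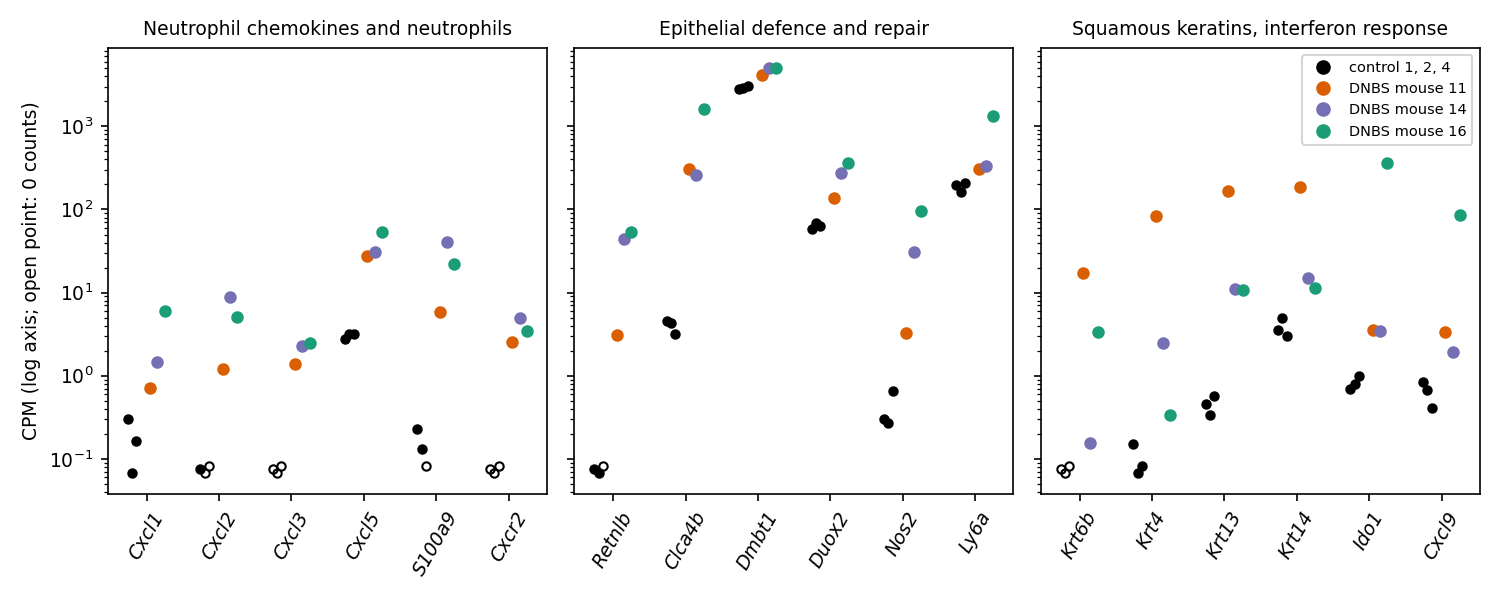
Level in CPM on a log axis of 18 genes in the 3 controls (black) and in DNBS mice 11, 14 and 16 (coloured), 1 point per mouse. Open points have 0 counts and are drawn at the level of 1 count; mouse 11 carries the squamous keratins, mouse 16 the interferon genes Ido1 and Cxcl9, and Cxcl5 lies at 27.4 to 53.7 CPM in all 3 DNBS mice.

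Among 20 monocyte and macrophage genes tested, 8 were higher and 0 lower, with a median log2 fold change of 0.68. Ccr2, the receptor that lets monocytes leave the bone marrow, was the most even of them. It measured 13.3, 13.6 and 11.8 CPM in the controls and 42.9, 43.7 and 43.4 CPM in the DNBS mice, a 3.36-fold rise with almost no spread within either group (log2 fold change 1.75 ± 0.31 SE, adjusted p = 0.00285). Its ligand Ccl2 rose 5.35-fold, from 0.762, 1.73 and 1.23 CPM to 5.79, 6.13 and 8.02 CPM (adjusted p = 0.0487), and was the only one of 17 CC chemokines called by edgeR, against 5 by DESeq2, 3 by limma and 3 with the 2 groups alone. Without DNBS mouse 11, 14 and 16 edgeR called 4, 1 and 0 of the 17, and 0 without any of the 3 controls. Fcgr1, the high-affinity receptor for IgG, rose 3.48-fold (adjusted p = 0.0208) and the scavenger receptor Msr1 2.79-fold (adjusted p = 0.0116). Arg1, the arginase of wound macrophages, behaved otherwise, at 0.914, 1.33 and 1.07 CPM in the controls and 43.6, 36.8 and 3.07 CPM in the DNBS mice. It was high in mice 11 and 14 and little above the controls in mouse 16 (25.2-fold over the group means, adjusted p = 0.0125). Spp1, the secreted glycoprotein osteopontin, was likewise lowest in mouse 16, at 1.71 CPM against 4.42 in mouse 11 and 12.9 in mouse 14, and its 24.9-fold rise had an adjusted p of 0.00849. Ccr2 was called in each of the 6 fits without 1 mouse. The list had 8, 2 and 6 higher genes without DNBS mouse 11, 14 and 16, and 1, 3 and 5 without control mouse 1, 2 and 4.

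Of 20 inflammatory cytokines tested, only Il1b and Tgfb1 were called, both higher, and the median log2 fold change was 1.24 (0.57 at the bound). Il1b measured 1.6, 0.733 and 1.72 CPM in the controls and 9.49, 18.4 and 23.1 CPM in the DNBS mice, a 12.6-fold rise without overlap (adjusted p = 0.0284). Tgfb1 rose 2.19-fold (adjusted p = 0.0212). Tnf, with 1.75, 0.733 and 1.31 CPM against 2.39, 5.12 and 13.6 CPM, had an adjusted p of 0.0905. Il22 had no count in the controls or in mice 11 and 14 and 1.62 CPM in mouse 16 (adjusted p = 0.263), and Ifng stood at 0.119, 0 and 3.16 CPM in mice 11, 14 and 16 (adjusted p = 0.23). Both lymphocyte cytokines were thus above the floor in mouse 16 alone. Without DNBS mouse 11, 14 and 16 the list had 3, 0 and 1 higher genes, and without control mouse 1, 2 and 4 it had 0, 0 and 1.

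Of 19 genes of epithelial antimicrobial defence tested, 10 were higher and 0 lower, with a median log2 fold change of 3.04. The summed level of the list did not follow, at 4033 to 4405 CPM in the controls and 3354, 3193 and 4333 CPM in DNBS mice 11, 14 and 16. Pigr, which carries IgA across the epithelium and made up most of that sum, measured 3145, 3508 and 3382 CPM against 2373, 1888 and 2393 CPM (adjusted p = 0.079, and 0.0495 with the 2 groups alone). Clca4b, an epithelial gene of the chloride channel accessory family outside that list, had the smallest adjusted p of the genes named. It measured 4.57, 4.33 and 3.2 CPM in the controls and 303, 261 and 1636 CPM in DNBS mice 11, 14 and 16. All 3 DNBS mice stood more than an order of magnitude above the controls, and the mean rose 182-fold (log2 fold change 7.50 ± 0.84 SE, adjusted p = 3.04e-05). It shares 24.8% of its sequence windows with Clca4a, whose difference had an adjusted p of 0.128. Retnlb, a goblet cell protein that acts on bacteria in the mucus, had 0.0762, 0.0666 and 0 CPM in the controls and 3.11, 44 and 53.7 CPM in the DNBS mice. Mouse 11 was the lowest again, and the ratio was 609 with a counting interval of 168 to 5030 (adjusted p = 0.00312). Slpi, a protease inhibitor with antibacterial action, rose 19.6-fold from 2.97, 2.8 and 2.87 CPM to 30, 66.6 and 73 CPM (adjusted p = 0.00157).

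The enzymes that make hydrogen peroxide and nitric oxide were among these genes. Duox2, the dual oxidase of the colon surface, measured 59, 68.2 and 62.6 CPM in the controls and 137, 278 and 358 CPM in the DNBS mice, 4.07-fold higher (log2 fold change 2.02 ± 0.31 SE, adjusted p = 7.29e-04). Its maturation factor Duoxa2 rose 8.29-fold (adjusted p = 3.34e-04). Both were lowest in mouse 11 and highest in mouse 16 among the DNBS mice, and above every control in all 3. Nos2, the inducible nitric oxide synthase, spanned a wider range, with 0.305, 0.266 and 0.656 CPM in the controls and 3.28, 31.2 and 95.1 CPM in the same order of DNBS mice (106-fold, adjusted p = 0.00297). Dmbt1, a mucin-like scavenger of bacteria and the largest rise in absolute level named here, went from 2797, 2884 and 3064 CPM to 4136, 5039 and 5031 CPM. That is a 1.62-fold rise without overlap (adjusted p = 0.0282), called without DNBS mouse 11 and in none of the other 5 fits without 1 mouse (log2 fold change 0.65 to 0.79). Gpx2, the epithelial glutathione peroxidase, rose 2.25-fold (adjusted p = 0.0117), and Hmox1, heme oxygenase, rose 5.02-fold (adjusted p = 0.00157). Of 23 genes of oxidant defence, 5 were higher and 0 lower, with 5, 2 and 3 higher without DNBS mouse 11, 14 and 16 and 1, 1 and 2 without control mouse 1, 2 and 4. Clca4b, Retnlb, Slpi, Duox2, Duoxa2, Nos2 and Hmox1 were called in each of the 6 fits. The defence list had 12, 8 and 8 higher genes without DNBS mouse 11, 14 and 16, and 7 without any of the 3 controls. Reg3b and Reg3g, antibacterial lectins, stood at no more than 5.12 and 4.09 CPM in any DNBS mouse (adjusted p = 0.266 and 0.343).

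Of 20 genes of wounded and regenerating epithelium, 10 were higher and 0 lower, with a median log2 fold change of 1.47. Krt7, a keratin of simple epithelium, measured 142, 127 and 150 CPM in the controls and 328, 398 and 355 CPM in the DNBS mice. The 3 DNBS mice were close to each other and the rise was 2.58-fold (log2 fold change 1.37 ± 0.24 SE, adjusted p = 0.00265). Mmp10, a matrix protease of the wound edge, rose 20.3-fold from 0.838, 0.866 and 0.738 CPM to 10.7, 19.5 and 19.4 CPM (adjusted p = 0.00513). Prss22, an epithelial serine protease, had 1 count over all controls and 9.32, 14.7 and 7.85 CPM in the DNBS mice (ratio 426, counting interval 76 to 16857, adjusted p = 0.0059). Ly6a, which marks the fetal-like state of regenerating crypts as well as lymphocytes and vessels, was uneven. It measured 197, 164 and 209 CPM in the controls, 304 and 330 CPM in mice 11 and 14 and 1339 CPM in mouse 16 (3.46-fold, adjusted p = 0.0233). Krt7, Mmp10 and Prss22 were called in each of the 6 fits without 1 mouse. The list had 13, 9 and 7 higher genes without DNBS mouse 11, 14 and 16, and 6 without any of the 3 controls. Of 20 cell cycle genes, Ccnb1, Cdc20 and Cdk1 were higher (2.66-, 2.39- and 2.03-fold), and the count was 10, 1 and 0 without DNBS mouse 11, 14 and 16 and 1, 0 and 0 without control mouse 1, 2 and 4.

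Matrix and fibroblast genes were higher for 11 of 22 tested and lower for 0, with a median log2 fold change of 0.96, and mouse 14 carried most of that. Col1a1, the main chain of fibrillar collagen, measured 165, 131 and 177 CPM in the controls and 310, 1099 and 266 CPM in DNBS mice 11, 14 and 16. The groups did not overlap, but mouse 14 was more than 3-fold above the other DNBS mice (3.54-fold over the means, log2 fold change 1.82 ± 0.41 SE, adjusted p = 0.0111). Lox, the enzyme that cross-links collagen, had the same order, with 7.32, 6.33 and 8.12 CPM against 28.5, 103 and 18.3 CPM (6.86-fold, adjusted p = 0.00232). Without mouse 14 only 1 gene of the list was called, against 13 without mouse 11 and 12 without mouse 16, and 3, 2 and 4 were called without control mouse 1, 2 and 4. With each DNBS mouse set alone against the controls, 14 genes of the list were higher in mouse 14 and 0 in mouse 16. Of 20 matrix proteases and inhibitors, 10 were higher and 0 lower. Timp1, an inhibitor of matrix metalloproteases, stood at 1.98, 3.2 and 2.71 CPM in the controls and 12.2, 84.8 and 11.8 CPM in the DNBS mice (13.8-fold, adjusted p = 0.00146). Mmp9, the gelatinase carried by neutrophils and macrophages, was also highest in mouse 14, at 56.3 CPM against 4.78 and 5.71 CPM in mice 11 and 16 (adjusted p = 0.012). Serpina3n, a protease inhibitor, rose 6.63-fold with an adjusted p of 6.16e-04. This second list had 11, 4 and 9 higher genes without DNBS mouse 11, 14 and 16, and 3, 4 and 7 without control mouse 1, 2 and 4. The mesothelial genes, which mark the outer lining of the gut wall, had medians of -0.55, 3.09 and -1.28 in mice 11, 14 and 16, so mouse 14 differed there as well, and the part of the outer wall in the matrix genes was not tested. The epithelial and mesothelial gene Msln, for example, was at 13.4, 53 and 5.97 CPM.

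The interferon genes were a feature of mouse 16. Of 28 tested, 10 were higher and 0 lower, with a median log2 fold change of 2.25 that came from 0.72, 0.29 and 3.56 in mice 11, 14 and 16. With the 2 groups alone 0 of the 28 were called, against 5 higher by DESeq2 and 1 by limma. DESeq2 gave no adjusted p for Ido1, Cxcl9 and Iigp1. Ido1, the tryptophan-degrading enzyme induced by interferon gamma, measured 0.686, 0.799 and 0.984 CPM in the controls and 3.58, 3.49 and 367 CPM in the DNBS mice. Cxcl9, a T cell attractant of the same response, measured 0.838, 0.666 and 0.41 CPM against 3.34, 1.94 and 85.6 CPM (adjusted p = 0.0249 for Ido1 and 0.0212 for Cxcl9). In both genes mice 11 and 14 were only a few CPM above the controls and mouse 16 was far higher. Iigp1, an interferon-induced GTPase against intracellular parasites, reached 679 CPM in mouse 16 and 33.6 and 17.1 CPM in mice 11 and 14. Without mouse 16 none of the 28 genes was called, nor was any without control mouse 1, 2 or 4, and 16 and 10 were called without mouse 11 and mouse 14. Set alone against the controls, mouse 16 had 21 of the 28 higher and mice 11 and 14 had 0. MHC class II genes followed, with 0 of 10 called in the full fit by edgeR, DESeq2 or limma, 5 at an unadjusted p under 0.05, and 6 higher in mouse 16 alone. Genes of natural killer and cytotoxic cells had medians of 1.22, -0.57 and 2.78 in mice 11, 14 and 16, with 1 of 12 called. Their part in the interferon genes was not tested.

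Keratins of stratified squamous epithelium, which lines the anus and skin but not the colon, rose most in mouse 11. Of 13 squamous genes tested, 6 were higher and 0 lower by edgeR, 4 of the 6 without overlap of the groups. The 2 groups alone gave 1 higher gene, DESeq2 2 and limma 4. DESeq2 gave no adjusted p for Krt1, Krt4, Krt5, Krt13 and Krt14. The summed level of the list was 83 to 97.2 CPM in the controls and 676, 114 and 168 CPM in mice 11, 14 and 16. Krt13, a keratin of wet squamous surfaces, measured 0.457, 0.333 and 0.574 CPM in the controls and 169, 11.2 and 10.8 CPM in the DNBS mice (140-fold, adjusted p = 6.16e-04). Krt14, of the basal layer, measured 3.58, 4.93 and 3.03 CPM against 184, 15 and 11.3 CPM (18.2-fold, adjusted p = 0.00597). Both keratins were highest in mouse 11 by an order of magnitude, yet mice 14 and 16 also lay above every control. Krt4, the partner of Krt13, differed, at 83 and 2.48 CPM in mice 11 and 14 and at 0.341 CPM in mouse 16, near its controls of 0.0666 to 0.152 CPM (ratio 347, counting interval 135 to 1277, adjusted p = 0.00578). Krt5 and Krt1 were above the controls in mouse 11 and, slightly, in mouse 14 for Krt5, and in mouse 16 they lay below the control mean. Krt6b and Krt6a, keratins of wounded epithelium, had no count in the controls and reached 17 and 15.1 CPM in mouse 11, but share 50.1% and 45.7% of their windows with related sequences and could not be separated with certainty. Krt13, Krt4 and Krt6b, the last of which is not on the list, were called in each of the 6 fits. The list had 2, 8 and 8 higher genes without DNBS mouse 11, 14 and 16, and 3, 3 and 5 without control mouse 1, 2 and 4. Skeletal muscle genes moved with the keratins, with summed levels of 26.2 to 35.7 CPM in the controls and 106, 35.5 and 22.2 CPM in mice 11, 14 and 16. Myh8, a myosin of skeletal muscle, was at 33.8 CPM in mouse 11 and 0 in the others, with at most 1 count in each control (adjusted p = 0.0321). How far tissue from beside the anus contributed to these values was not tested.

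Fewer genes were lower than higher in the full fit. Slc30a10, which exports manganese from cells, had the largest fall named, from 9.37, 9.12 and 14.8 CPM in the controls to 1.31, 0.931 and 0.0853 CPM in DNBS mice 11, 14 and 16. The groups were far apart, and the mean was 14.3-fold lower (log2 fold change -3.75 ± 1.06 SE, adjusted p = 0.0373), a call kept without DNBS mouse 11 and lost in the other 5 fits without 1 mouse (log2 fold change -4.38 to -3.28 over the 6). Il15, a cytokine that keeps intraepithelial lymphocytes alive, fell from 37.3, 31.8 and 26.2 CPM to 16.2, 6.75 and 9.55 CPM (log2 fold change -1.54 ± 0.26 SE, adjusted p = 0.00146). Lifr, the receptor for leukemia inhibitory factor, fell from 46.3, 38.9 and 33.1 CPM to 20.5, 13.6 and 9.04 CPM (log2 fold change -1.45 ± 0.24 SE, adjusted p = 0.00146). Nlrp9b, the sensor of viral RNA in intestinal epithelium, fell from 51.1, 55.8 and 38.5 CPM to 20.7, 13.9 and 12.1 CPM (adjusted p = 0.00348). In all of these genes mouse 11 had the highest level of the DNBS mice and still lay below every control. Arntl, the clock gene Bmal1, fell from 80.9, 84.1 and 70.7 CPM to 52.1, 27.8 and 49 CPM (adjusted p = 0.00827), and the time of day at cull was not given. Of 5 clock genes listed in the phase of Bmal1, 1 was called lower by edgeR and 3 by limma, with a median log2 fold change of -0.37. Of 9 listed in the phase of Dbp, 0 were called by edgeR and 2 were higher by limma, with a median of 0.31. Il15, Lifr, Nlrp9b, Arntl, Dgkh, Mylip, Slc35e3, Hist1h4h and Methig1 were called in each of the 6 fits. Hist1h4h and Methig1 share 45.8% and 58.8% of their windows with related sequences, and Methig1 overlaps Mettl7a2, so their values are uncertain. Among the abundant genes, Txnip, which restrains thioredoxin and glucose uptake, fell from 836, 723 and 818 CPM to 507, 432 and 395 CPM (adjusted p = 0.0161), and Gsn, which severs actin, fell 1.65-fold on the means (adjusted p = 0.0361).

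Among transport and differentiation genes of the mature colonocyte, the number called depended on the test. Of 24 tested, 1 was higher and 3 lower by edgeR, with a median log2 fold change of -0.66 and 9 lower at an unadjusted p under 0.05, against 6 lower with the 2 groups alone, 9 by limma and 14 by DESeq2. Slc20a1, a phosphate transporter, fell from 356, 281 and 352 CPM to 165, 155 and 83.8 CPM (adjusted p = 0.0332). Slc16a1, which carries butyrate and lactate, fell from 449, 439 and 455 CPM to 362, 249 and 289 CPM (adjusted p = 0.0234), and Nr3c2, the mineralocorticoid receptor, from 136, 137 and 148 CPM to 103, 74 and 80.8 CPM (adjusted p = 0.0297). All 3 were lower in every DNBS mouse than in every control, by factors of 1.49 to 2.45 on the means, and in the list 4 genes were lower without DNBS mouse 11 and 0 without any other mouse. The water channel Aqp4 was the exception and rose from 37.3, 44.5 and 45.8 CPM to 67.2, 244 and 385 CPM (adjusted p = 0.0112). Slc26a3, the chloride and bicarbonate exchanger of the colon surface, measured 788, 725 and 1017 CPM against 330, 224 and 226 CPM. Its groups were well apart but its adjusted p was 0.0801 in the full fit, 0.0151 with the 2 groups fitted alone and 1.82e-14 with DESeq2. Of 25 drug metabolism genes, Cyp2d34 and Cyp3a13 were lower (2.06- and 1.76-fold on the means), against 8 by limma and 11 by DESeq2. No gene of 25 for oxidative phosphorylation was called, with 1 at an unadjusted p under 0.05, 1 called by DESeq2 and 1 by limma, all lower, and a median of 0.03. None of 22 for fatty acid oxidation was called either, with 2 higher and 1 lower at an unadjusted p under 0.05 and 1 each way by DESeq2 and by limma.

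Lymphocyte genes were then examined. None of 12 T cell genes was called by edgeR, DESeq2 or limma and 0 had an unadjusted p under 0.05; their medians were -0.03, -1.20 and 1.01 in mice 11, 14 and 16. None of 12 B cell genes was called by edgeR or DESeq2, 0 had an unadjusted p under 0.05 and limma called 1 lower. Of 10 plasma cell genes, 2 were higher and 2 lower by edgeR, and 3 higher and 0 lower by DESeq2, with a median log2 fold change of -0.68. Txndc5, a protein folding enzyme, and Prdm1, a transcription factor of plasma cells that other cells use too, were the higher genes (1.72- and 2.82-fold, adjusted p = 0.0089 and 0.0269). Igha, the heavy chain of IgA, measured 228, 340 and 810 CPM in the controls and 237, 215 and 93.2 CPM in the DNBS mice, and Jchain, which joins IgA into dimers, measured 64.4, 99.8 and 310 CPM against 70.5, 47.2 and 25.2 CPM. Igha and Jchain were called lower (adjusted p = 0.034 and 0.0152), but control mouse 4 was far above its group and the ranges of the groups overlapped. Without control mouse 4 the log2 fold changes of Igha and Jchain went from -1.34 and -1.73 to -0.64 and -0.78 and were not called, and both calls were also lost without DNBS mouse 14 or 16, and that of Igha without control mouse 2. None of 15 smooth muscle genes was called, with 1 lower at an unadjusted p under 0.05, 0 by DESeq2 and 2 lower by limma.

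The lower genes held more long non-coding transcripts than the higher ones. Such transcripts made up 10.3% of the genes tested, 22.3% of the lower genes (92) and 1.22% of the higher genes (9). Their median log2 fold change was -0.51, with -0.26, -0.66 and -0.73 in mice 11, 14 and 16, and it was -0.51 and -0.58 under the other scalings. The shift was not particular to DNBS, since long non-coding transcripts had medians of -0.39 in DSS and -0.79 in IL10 antibody mice against the same controls. Their share of all counts was 0.987%, 0.886% and 0.846% in the controls and 0.783%, 0.602% and 0.594% in the DNBS mice, so that every DNBS library lay below every control. The strand setting of the counting was not stated, so reads of antisense transcripts and their partners may be mixed.

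The 3 DNBS mice were then compared with each other. The median standard deviation of a gene's log2 CPM was 0.267 in DNBS and 0.154 in the controls, and 0.166 to 0.297 in the other groups of the series. Pairs of DNBS mice were 2-fold or more apart at 8.41% to 11.1% of the genes tested, against 2.88% to 3.87% for pairs of controls. Mouse 11 was nearest the controls. Its levels were 2-fold or more above the control mean for 804 genes, against 1313 in mouse 14 and 1376 in mouse 16, and 2-fold or more below it for 646, 1940 and 2343 genes. With each DNBS mouse set alone against the controls, under the assumption that a lone mouse varies like the other groups, 71, 560 and 1006 genes were higher in mice 11, 14 and 16 (0.381%, 3.01% and 5.4%) and 1, 200 and 429 lower (0.00537%, 1.07% and 2.3%). Only 15 genes were higher in all 3 of these fits and 178 in those of mice 14 and 16, while 38, 368 and 824 were higher in the fit of mouse 11, 14 or 16 and in neither of the others. The list medians of neutrophil chemokines and epithelial defence were above 1 in every mouse, while those of squamous epithelium, matrix and interferon response were above 1 in mouse 11, mouse 14 and mouse 16 respectively and below it in the others.

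**Figure D3:**
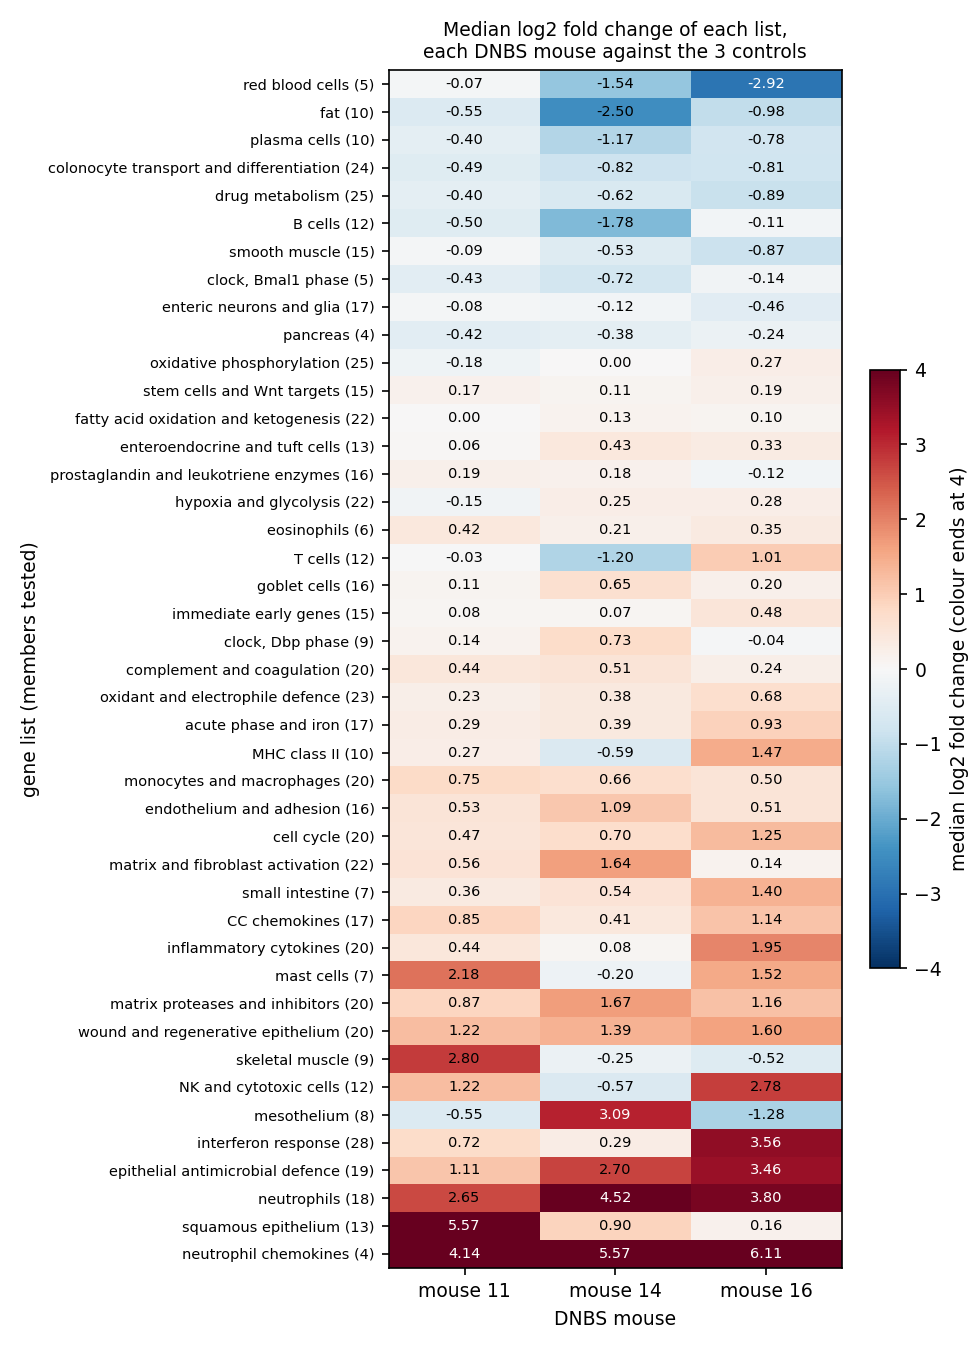
Median log2 fold change of each gene list (rows, with the number of members tested) in each DNBS mouse against the 3 controls (columns); red is higher and blue lower, with the colour ending at 4. Squamous epithelium stands at 5.57, 0.90 and 0.16 in mice 11, 14 and 16, interferon response at 0.72, 0.29 and 3.56, and neutrophil chemokines at 4.14, 5.57 and 6.11.

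**Figure D4:**
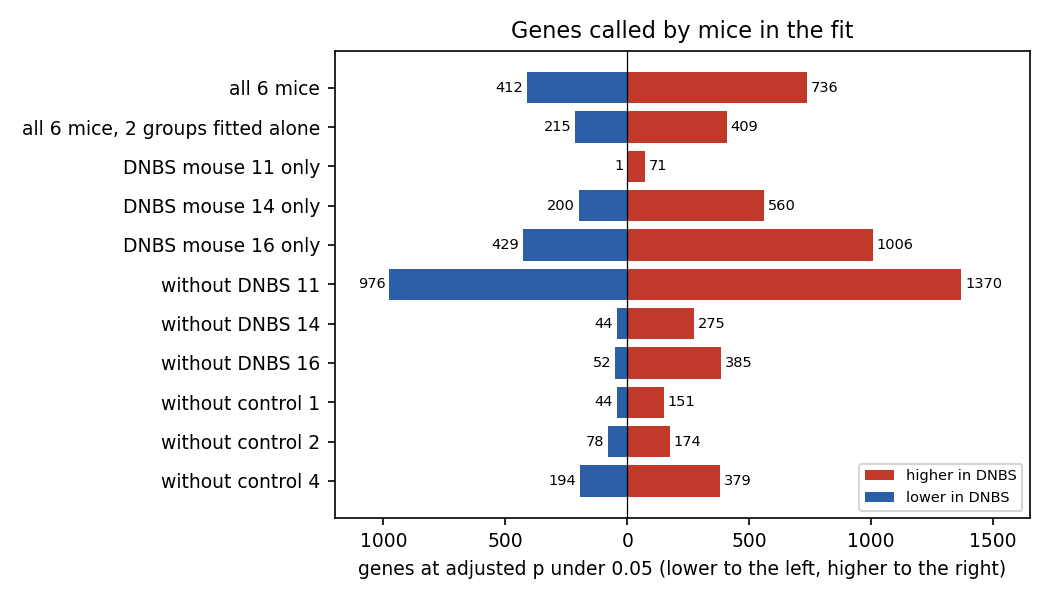
Number of genes that edgeR called with an adjusted p under 0.05 (horizontal axis, higher in DNBS to the right in red, lower to the left in blue) by the mice in the fit (rows). The full fit has 736 and 412, mouse 11 alone 71 and 1, and the fit without mouse 11 1370 and 976.

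To ask how DNBS colitis differed from the other models labelled Balb/C, its 3 mice were compared with the 3 DSS and the 4 IL10 antibody mice. The times after treatment differ between the models, so model and time cannot be told apart, nor, where the strain is in doubt, model and strain. Against DSS, 2093 genes were higher in DNBS (11.2%) and 2114 lower (11.4%) in the fit of all groups, but 4 (0.0215%) and 2 (0.0107%) with the DNBS and DSS mice fitted alone, and 927 (4.98%) and 677 (3.64%) without DSS mouse 8. Alb, Krt7 and Frat2 were among the 4 higher genes, and the 2 lower were Wfdc18 and Clca4c-ps, named after their values were seen because they are so few. Alb, which encodes serum albumin, measured 5.14, 9.46 and 6.23 CPM in DNBS, at most 0.273 CPM in DSS and 1.07 to 1.6 CPM in the controls (log2 fold change over DSS 5.33, adjusted p = 0.00133, and 0.0416 with the 2 groups alone). Krt7 stood at 328, 398 and 355 CPM in DNBS and 92, 94.6 and 103 CPM in DSS, where it lay below its controls (adjusted p = 7.20e-05, and 0.0416 alone). Wfdc18, an antimicrobial protease inhibitor, was at 9.2, 17 and 14.5 CPM in DNBS and 83.1, 111 and 122 CPM in DSS (adjusted p = 1.62e-05, and 0.0416 alone). Of 18 neutrophil genes, 16 were lower in DNBS than in DSS in the fit of all groups, 8 without DSS mouse 8 and 0 with the 2 groups alone. Cxcl2 reached 27.1, 38.2 and 562 CPM in DSS and Il1b 48.4, 84.2 and 1291 CPM, so that DSS mouse 8 was far above its group.

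Against the IL10 antibody mice, 3076 genes were higher in DNBS (16.5%) and 3242 lower (17.4%), or 3923 and 2624 under upper quartile scaling and 1118 (6.01%) and 1243 (6.68%) with these groups fitted alone. Without IL10 antibody mouse 4, the library with few posterior Hox transcripts, 2568 genes were higher (13.8%) and 2538 lower (13.6%). All 12 T cell genes were lower in DNBS, 10 with the 2 groups alone and 12 without IL10 antibody mouse 4. Of 19 epithelial defence genes, 14 were lower, 10 with the 2 groups alone and 13 without that mouse. Reg3b measured 0.0597, 0.31 and 5.12 CPM in DNBS and 421, 303, 570 and 7511 CPM in the IL10 antibody mice (log2 fold change -10.34, adjusted p = 6.72e-05, and 0.0264 alone). Gzmk, a granzyme of T cells, had at most 0.0597 CPM in DNBS and 5.75 to 9.15 CPM in the IL10 antibody mice. On the other side, 20 of 22 matrix genes were higher in DNBS, 12 with the 2 groups alone and 19 without that mouse. Against the controls, the IL10 antibody mice had 1 of these 22 higher and 7 lower, with a median log2 fold change of -0.44. Over all genes tested these shares were 27.2% and 26.1%. The difference in matrix genes is thus not a measure of the rise in DNBS over control alone. Cyp2c55, a cytochrome P450 of the colon, stood at 263, 162 and 66.9 CPM in DNBS against 0.0843 to 6.06 CPM in the IL10 antibody mice. Oxidative phosphorylation was lower in DNBS for 22 of 25 genes, 11 with the 2 groups alone and 18 without that mouse, whereas 22 of the 25 were higher in DNBS than in DSS in the fit of all groups, 5 without DSS mouse 8 and 0 with the 2 groups alone. Krt4 was at 0.341 to 83 CPM in DNBS, at most 0.08 CPM in DSS and 0 in every IL10 antibody mouse. Clca4b, which rose in DNBS, stood higher still in both other models, at 2004 to 3405 CPM in DSS and 3346 to 5553 CPM in the IL10 antibody mice.

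**Figure D5:**
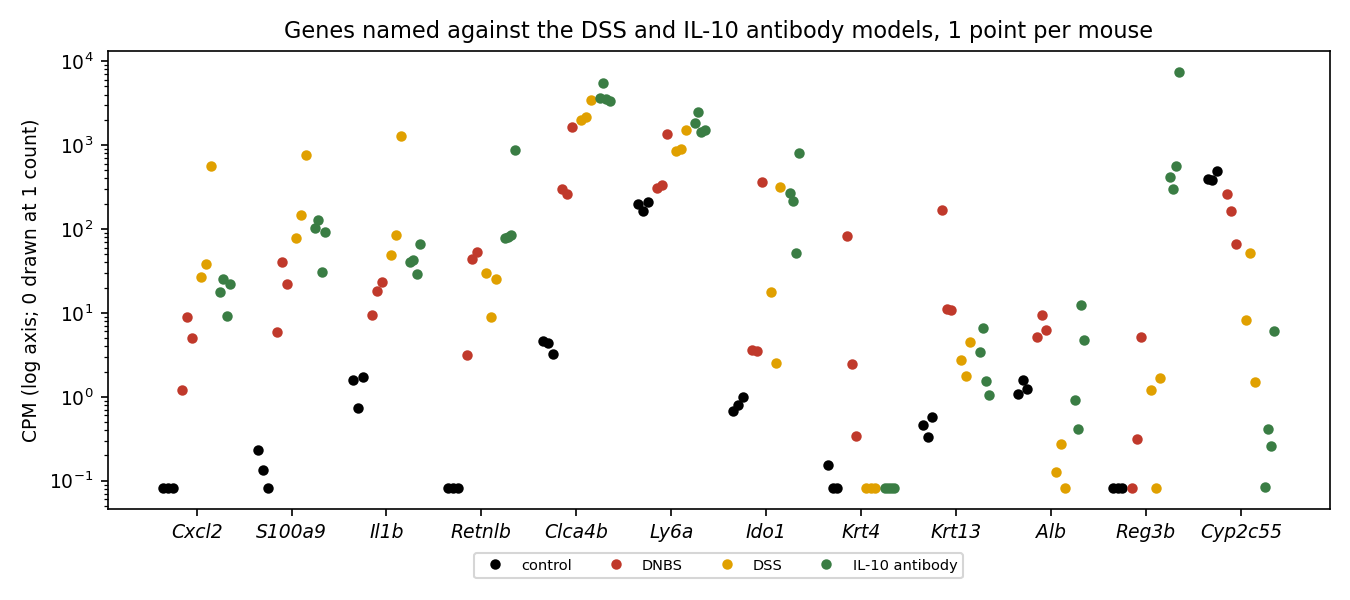
Level in CPM on a log axis of 12 genes in the controls (black), DNBS (red), DSS (yellow) and IL10 antibody (green) mice, 1 point per mouse, with values at or under about 1 count drawn at 1 count. DNBS mice lie below both other models in Clca4b and Il1b, above both in Krt4, and below the IL10 antibody mice in Reg3b (at most 5.12 against at least 303 CPM).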

How the data were processed

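Colon RNA from 29 mice in 9 groups was sequenced after poly-T selection, and 6 of them (3 DNBS, 3 untreated wild-type) form the main comparison. The submitters' processing notes name Trimmomatic, HISAT2, HTSeq and GRCm38; versions and strand setting were not given in the sources used here. The table deposited by the authors holds raw counts for 54532 genes, of which 20470 had none, and the total count of its 92 spike-in controls was 0.

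Counts were fitted for all 9 groups together with edgeR 4.0.16 (R 4.3.3) by quasi-likelihood with TMM scaling, for the 18616 genes whose counts averaged 3 or more over the 29 mice, with Benjamini-Hochberg adjustment and a threshold of 0.05. CPM use TMM library sizes. Sharing of sequence was measured over windows of GENCODE M21 transcripts. Alternatives were RLE and upper quartile scaling, no filter, filterByExpr, a threshold of 0.01, the 2 groups alone, DESeq2 1.42.0, limma 3.58.1 (voom with sample weights), each mouse left out and each DNBS mouse alone.

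The members and gene lists were chosen with earlier results of these data known. Beyond list members, genes were named where they were called without overlap and among the 15 largest rises (mean of at least 1 CPM in DNBS) or falls (at least 1 CPM in control), the 5 largest rises or falls in CPM, the 8 largest rises or falls called in each fit without 1 mouse, the 10 widest ranges among DNBS mice at 10 CPM or more, or the 5 largest differences from DSS or IL10 antibody mice in each direction. Predicted models, pseudogenes and immunoglobulin or T cell receptor segments were left out, and some genes are not reported here. The labels number the mice but do not say how they were housed or run, so p-values measure only spread between samples. In the main fit that spread is 1 estimate per gene shared by the 9 groups, not that of the DNBS and control mice alone. The groups differed in it, with a median standard deviation of log2 CPM of 0.154 in the controls and 0.267 in DNBS. Depth limited genes near the floor of 3 counts.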

Additional observations from a re-analysis of the deposited data

Results flagged for a closer look

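In the IL10 antibody mice, 6 of 10 genes tried had a mouse set apart from the other 3 by Dixon's test. Chance does this in about 1 of 20 groups, but the genes share the same 4 mice and were picked by their difference from DNBS. The 6 genes therefore cannot be set against that rate. Mouse 4 was the outlying mouse for 5 of them: Reg3b at 7511 CPM, Reg3g at 4487 CPM, H2-T3 at 173 CPM, the gene ccdc198 at 20.2 CPM and Cyp2c55 at 6.06 CPM. Klk15 stood apart in mouse 2, at 0.624 CPM. These genes were named because they differed most from DNBS, and all 4 mice enter that comparison; mouse 4 also had 20.1 CPM of posterior Hox transcripts against 500 to 948 CPM in the other 3, and it was among the 4 libraries short of 19 transcripts. Whether this bears on the values of mouse 4 was not tested. Groups of 3 mice, DNBS and control included, were not put through the test.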

How the results depend on the processing

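No paired analysis was possible because the labels link no DNBS mouse (11, 14 or 16) to a control, DSS or IL10 antibody mouse. The replicate numbers only name mice and were not taken as pairs. The number of genes higher in DNBS than in control, 736, became 1105 with DESeq2, 409 with the 2 groups alone, 1618 with limma, 175 at a threshold of 0.01 and 71 with mouse 11 alone. The number lower, 412, became 772 with DESeq2, 215 with the 2 groups alone, 1213 with limma, 46 at 0.01, 1 with mouse 11 alone and 200 with mouse 14 alone. Leaving out 1 mouse gave 151 to 1370 higher and 44 to 976 lower genes. Against DSS the fit of the 2 groups alone gave 4 higher and 2 lower genes, and leaving out 1 mouse gave 927 to 2251 and 677 to 2370. Against the IL10 antibody mice these were 1118 and 1243, and 1704 to 3321 and 1824 to 3497. The median standard deviation among DNBS mice was 0.171 to 0.249 without 1 mouse. Over the 178 named genes, 815 of 2819 values passed from one side of the threshold to the weaker side, and 7 changed sign: Krt1 (-3.08) and Krt5 (-1.99) in mouse 16 alone, Ppbp (-1.07) in mouse 16 alone, Mylpf (-0.13) in mouse 14 alone, and Myh8 (-2.57) in mouse 14 alone, in mouse 16 alone and without mouse 11, with -2.57 to 8.16 over the fits without 1 mouse. The fits with fewer mice also have fewer residual degrees of freedom; otherwise the cause was not tested. DESeq2 gave no adjusted p for 21 of the 178 named genes, and its values for them are left out here. Of the 21, 14 were called, among them Ido1, Cxcl9, Krt4, Krt13, Krt14, Mmp9 and Myh8. Over all genes tested, 56 of the called genes had no adjusted p in DESeq2.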

Other observations

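Outside the lists described above, 6 of 17 acute phase and iron genes were higher in DNBS colon and 0 lower. Steap4, a metal reductase, measured 9.83, 9.92 and 5.99 CPM in the controls and 46.1, 55.9 and 32.5 CPM in DNBS mice 11, 14 and 16 (5.23-fold, adjusted p = 6.16e-04). Lrg1, a secreted glycoprotein of the acute phase, rose from 2.59, 4.93 and 3.03 CPM to 9.49, 29.6 and 70.3 CPM (10.4-fold, adjusted p = 0.00146). Both genes lay above every control in every DNBS mouse and were called whichever mouse was left out. Socs3, the feedback inhibitor of cytokine receptors, was higher 6.46-fold (adjusted p = 0.0147), with 123 CPM in mouse 16 against 20.1 and 26.3 CPM in mice 11 and 14. The list had 7, 3 and 3 higher genes without DNBS mouse 11, 14 and 16, and 2, 2 and 3 without control mouse 1, 2 and 4. Of 16 goblet cell genes, Spink4 and Galnt12 were higher (2.09- and 1.96-fold), and the main mucin Muc2 stood at 753, 724 and 719 CPM in the controls and 722, 1269 and 968 CPM in the DNBS mice (adjusted p = 0.324). Spink4 was called in each fit without 1 mouse, while the goblet list had between 1 and 5 higher genes in those fits. Vegfa, the vessel growth factor, was the only called gene of 22 for hypoxia and glycolysis and was lower, at 118, 122 and 98.4 CPM against 62.2, 65.7 and 64.1 CPM (adjusted p = 0.0229). Its call was kept without DNBS mouse 11 or control mouse 4 and lost without any of the other 4 mice (log2 fold change -0.91 to -0.76 over the 6 fits).

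Ppbp, a platelet chemokine, had 0.381, 0.466 and 0.246 CPM in the controls and 26.5, 3.49 and 0.171 CPM in DNBS mice 11, 14 and 16 (adjusted p = 0.0059), and mouse 16 lay below every control. Slc9a3, the sodium and proton exchanger of the colon surface, spanned 0.119, 34.1 and 7.34 CPM in the same mice around controls of 1.22 to 1.73 CPM (adjusted p = 0.0714).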
